A study of Mus musculus with 12 samples.

Results

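The Notch ligand genes Dll1, Dll4 and Jag1, the receptor genes Notch1, Notch2 and Notch3, the Fringe genes Lfng and Mfng, the nuclear effector gene Rbpj and the target gene Hes1 were followed over 6 cell populations of the mouse small intestine. These 10 genes were taken by name and carry 16 of the 45141 probe sets on the arrays. Where a gene had more than 1 probe set, the one with the highest mean over all arrays stood for it, and 17097 genes were tested in this way. The populations were isolated by their level of Mex3a, which encodes an RNA-binding protein, and of Lgr5, the R-spondin receptor gene used as a marker of crypt base stem cells. They were Mex3a-high, Mex3a-low and Mex3a-negative cells, each of Lgr5-high and of Lgr5-low level. Each was measured in the biological replicates MR793 and MR820, which gives n = 2 for every population and 12 arrays in all, and this number limits the precision of every comparison. All were untreated primary cells, with RNA from 2000 cells a sample amplified over 22 cycles. What was used to read the Mex3a and Lgr5 level of a cell, any reporter allele, and the strain, age and number of the animals behind a replicate are not stated in the labels. Values are log2 RMA expression values, so that a difference of 1 is a 2-fold difference in the summarised array signal. Levels are compared between populations and never between genes, since probe sets differ in brightness.

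Notch is a pathway between neighbouring cells. A ligand of the Delta or Jagged type on the surface of 1 cell binds a Notch receptor on the next, the receptor is cut, and its intracellular part joins RBPJ in the nucleus to switch on target genes such as Hes1. Fringe enzymes add a sugar to the receptors that changes which ligands activate them. In the intestinal crypt, Notch signalling keeps stem and progenitor cells undifferentiated and directs them towards the absorptive fate, while cells that enter the secretory fate are known to carry Delta ligands and to have low Notch activity.

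The array labelled Mex3a-high Lgr5-high MR793 stood apart. Over all probe sets it correlated with the other 11 at 0.896 to 0.916, against 0.971 to 0.996 among those 11. Values without it are given beside differences that use it, and the counts over all genes and of marker genes are from all 12 arrays unless said otherwise. Without it the Mex3a-high Lgr5-high population is MR820 alone, so values for that population also hold any shift between the replicates. Lgr5 lay higher on all 6 Lgr5-high than on all 6 Lgr5-low arrays (2.61 ± 0.23, log2 difference ± SE, limma adjusted p = 0.000843, and 2.82 without that array). It was not level within Lgr5-low cells. There its mean was 7.83 in the Mex3a-high and 6.81 in the Mex3a-negative population, without overlap of arrays. That difference, 1.02 ± 0.40, did not pass the test (limma adjusted p = 0.571). The matching Lgr5-high populations overlapped (-0.41 ± 0.40, adjusted p = 0.569, and 0.19 without the array that stood apart). The part of the Lgr5 level in the differences between Mex3a levels was not tested. Mex3a had values of 5.44 to 6.35, about the array medians (5.83 to 6.04), where differences are compressed and small ones say little. Its Mex3a-high minus Mex3a-negative difference was 0.12 ± 0.19 in Lgr5-low (limma adjusted p = 1.00) and 0.29 ± 0.19 in Lgr5-high cells (adjusted p = 0.505, and 0.03 without that array). The epithelial marker genes Epcam, Cdh1, Krt8 and Vil1 had a log2 summed level of 13.2 to 13.8 over the 12 arrays. As the samples are bulk RNA, more cells of a type and more RNA per cell cannot be told apart in any of the differences that follow.

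The RefSeq promoter table (GRCm38.p6) held 8 of the 10 genes, with 10 gene starts; Hes1 and Mfng were not in it. The 250 bases before the start are shown for 3 genes. Dll4 is the only one of the 10 genes that passed the test in the fit on all arrays, Dner is the further Notch ligand gene that passed it, and Lfng is the gene whose promoter held the most matches. Sequences run 5′ to 3′ on the strand of the gene. Capitals mark matches on either strand to the RBPJ motif TTCCCA, to its longer form TTCCCAC, which contains the former, and to the E-box CAGCTG, which reads the same on both strands.
Dll4, chr2:119325534-119325783, plus strand: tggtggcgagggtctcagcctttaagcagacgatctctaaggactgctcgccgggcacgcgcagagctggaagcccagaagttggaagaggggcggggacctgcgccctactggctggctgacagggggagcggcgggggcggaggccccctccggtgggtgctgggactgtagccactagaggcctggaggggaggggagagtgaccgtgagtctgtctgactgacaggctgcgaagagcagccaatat
Dner, chr1:84696222-84696471, minus strand: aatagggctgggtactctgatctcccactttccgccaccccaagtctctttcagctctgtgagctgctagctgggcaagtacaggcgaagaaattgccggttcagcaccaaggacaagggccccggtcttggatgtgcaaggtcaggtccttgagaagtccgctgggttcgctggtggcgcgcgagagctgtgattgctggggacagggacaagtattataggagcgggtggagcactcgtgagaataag
Lfng, chr5:140607091-140607340, plus strand: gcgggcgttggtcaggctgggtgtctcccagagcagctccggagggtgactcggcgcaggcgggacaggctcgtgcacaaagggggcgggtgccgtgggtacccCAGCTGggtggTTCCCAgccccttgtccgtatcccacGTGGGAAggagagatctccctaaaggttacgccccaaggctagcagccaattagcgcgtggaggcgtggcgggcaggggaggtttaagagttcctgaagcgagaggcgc
Neither the Dll4 nor the Dner window held a match, which says only that these letters do not occur in those 250 bases. TTCCCA was found in 3 of the 10 promoters (Lfng and both starts of Rbpj), against 21.6% of all 32851 promoters in the table. The 2 Rbpj windows overlap, and the match 65 bases before 1 start is the same site as that 205 bases before the other. TTCCCAC was found in 1 (Lfng, against 5.42%) and CAGCTG in 3 (Jag1, Lfng and 1 of the 2 starts of Dll1, against 13.0%). In Lfng the E-box began 146 bases before the start, and TTCCCA 135 bases before it on the gene's strand. A match is a description of the letters and not of binding.

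**Figure D1:**
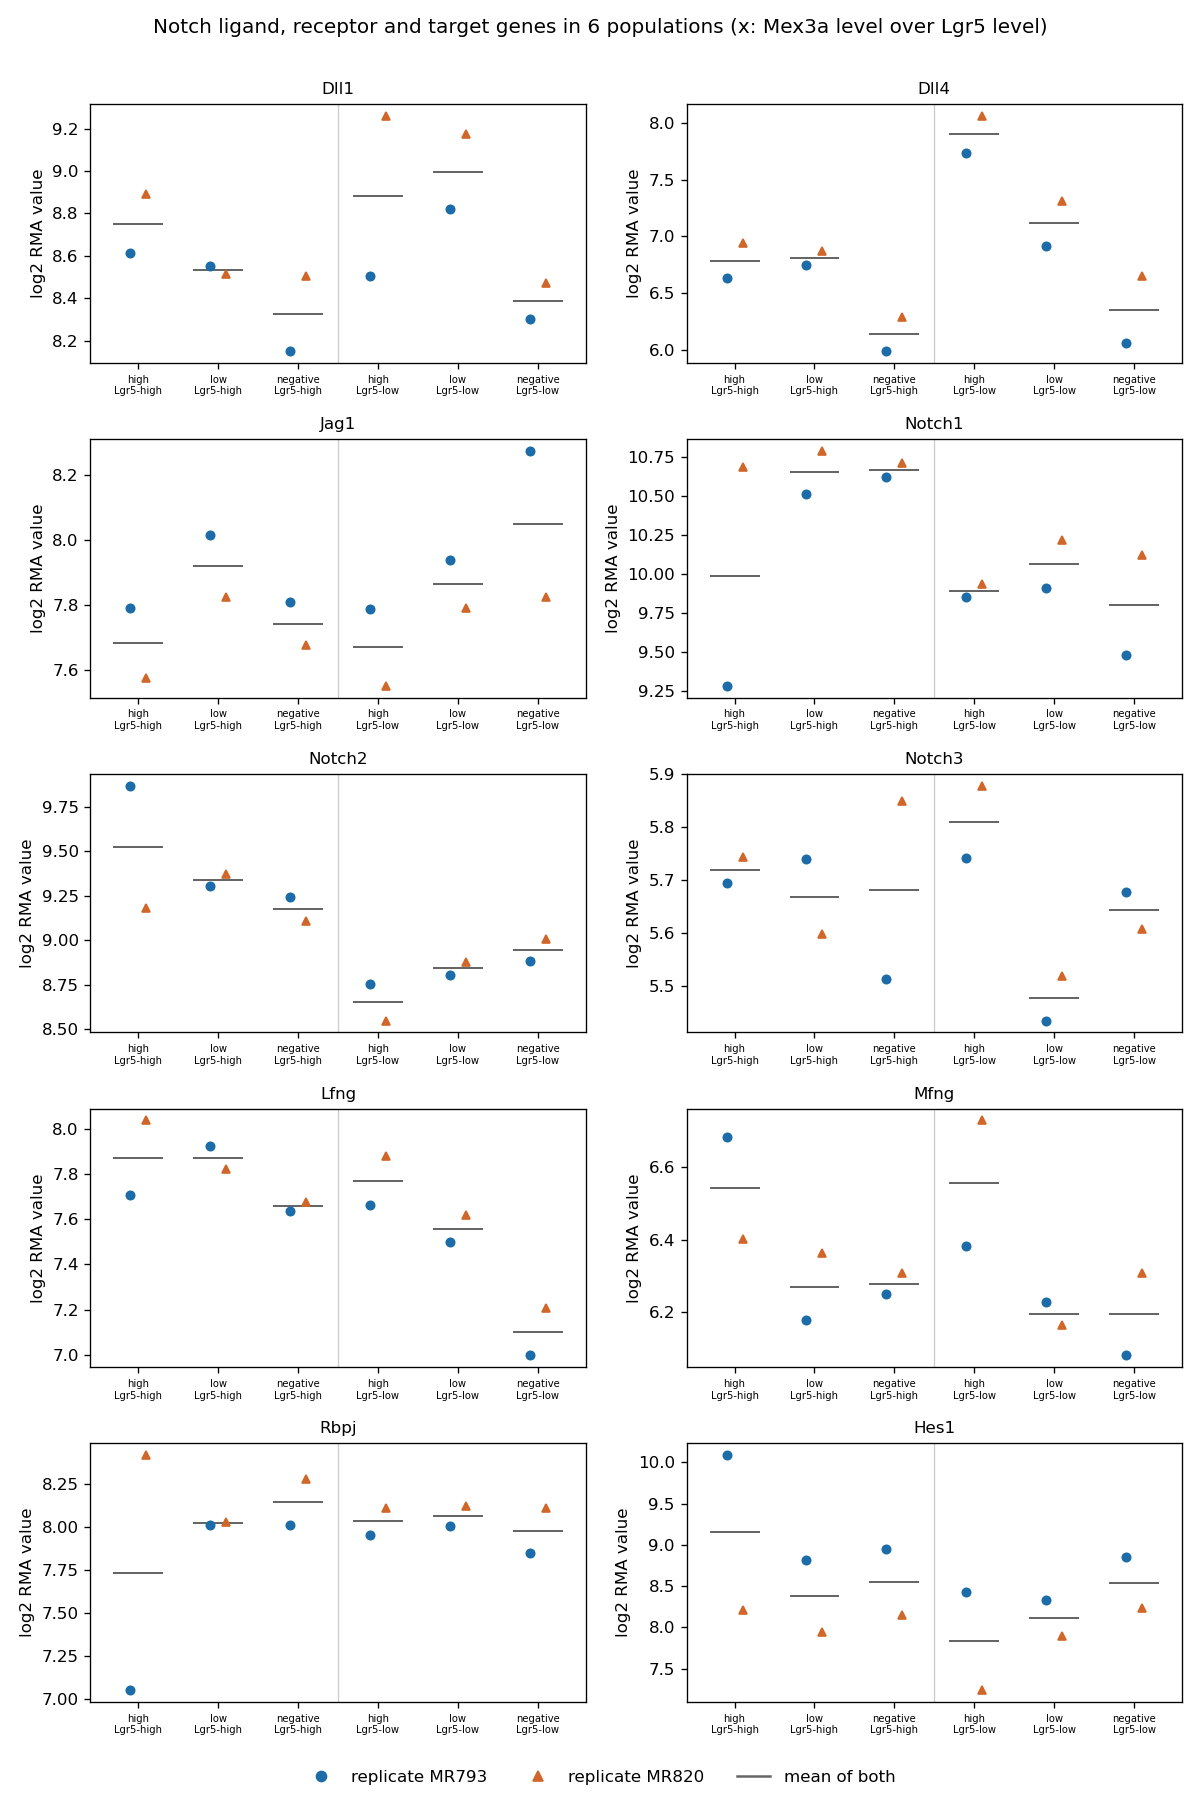
Log2 RMA value (y axis) of each of the 10 genes on each array, by population (x axis, Mex3a level over Lgr5 level); circles are replicate MR793, triangles MR820 and lines the mean of both (n = 2). Dll4 is highest in Mex3a-high Lgr5-low cells at 7.74 and 8.06, and in Mex3a-high Lgr5-high cells the MR793 circle lies away from the MR820 triangle for Notch1, Rbpj and Hes1.

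The ligand gene Dll4 rose from Mex3a-negative to Mex3a-high Lgr5-low cells. Dll4 encodes Delta-like 4, a Delta ligand of the crypt and of blood vessels. In Mex3a-high Lgr5-low cells it was at 7.74 in MR793 and 8.06 in MR820, in Mex3a-low Lgr5-low cells at 6.92 and 7.32, and in Mex3a-negative Lgr5-low cells at 6.06 and 6.65. Every array of a higher Mex3a level lay above every array of the next lower one. The gap between the end populations was 1.54 ± 0.26 (log2 difference ± SE, n = 2 against 2, limma adjusted p = 0.0140), 1.68 in MR793 and 1.41 in MR820. It was 1.38 within array strip 3, which holds 3 of these 4 arrays. Of the 10 genes only Dll4 was called in this comparison, and 1.71% of all 17097 genes were called higher (295 genes, or 1.73%, in either direction). The call was lost without the Mex3a-high Lgr5-low array of MR793 (1.70, adjusted p = 0.0675), without that of MR820 (1.38, adjusted p = 0.141) and without the Mex3a-negative Lgr5-low array of MR793 (1.25, adjusted p = 0.144).

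The steps between were smaller and did not pass the test. Dll4 differed by 0.76 ± 0.26 between Mex3a-low and Mex3a-negative Lgr5-low cells (limma adjusted p = 1.00) and by 0.78 ± 0.26 between Mex3a-high and Mex3a-low Lgr5-low cells (adjusted p = 0.526). These comparisons share arrays with the one that was called, so they are not separate evidence. A second Dll4 probe set was dimmer. It was at 6.46 and 6.50 in Mex3a-high, at 6.28 and 6.14 in Mex3a-low and at 5.82 and 5.89 in Mex3a-negative Lgr5-low cells, in the same order with no overlap. Its difference between the ends was 0.63 ± 0.24, smaller than on the brighter probe set, and did not pass the test over all single-gene probe sets (limma adjusted p = 0.521). It passed without the array that stood apart, which is in neither population (adjusted p = 0.00868).

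Among Lgr5-high cells Dll4 separated Mex3a-negative cells from both others by value, but not by the test. It was at 6.63 and 6.94 in Mex3a-high, at 6.75 and 6.87 in Mex3a-low and at 5.99 and 6.29 in Mex3a-negative Lgr5-high cells, so that the first 2 populations overlapped and both lay above the third. The difference from Mex3a-negative cells was 0.64 ± 0.26 for Mex3a-high cells (0.64 in MR793 and 0.65 in MR820, limma adjusted p = 0.505) and 0.67 ± 0.26 for Mex3a-low cells (adjusted p = 1.00). Limma called 0 of all 17097 genes in either comparison, and at an unadjusted p under 0.05 it gave Dll4 alone of the 10 genes in each, against 3.87% of all genes in the first and 0.462% in the second. Without the array that stood apart the first of these was 0.80 ± 0.27 (adjusted p = 1.00). The Mex3a-high and Mex3a-low Lgr5-high populations differed in Dll4 by -0.02 ± 0.26 (adjusted p = 0.964, and 0.13 without that array). The Mex3a-high minus Mex3a-negative change was larger in Lgr5-low than in Lgr5-high cells by 0.90 ± 0.37, a difference that did not pass the test (limma adjusted p = 0.865, and 0.75 with adjusted p = 0.572 without that array).

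Dll4 was lower in Lgr5-high than in Lgr5-low cells where the Mex3a level was high. Both Mex3a-high Lgr5-high arrays (6.63 and 6.94) lay below both Mex3a-high Lgr5-low arrays (7.74 and 8.06). The difference was -1.11 ± 0.26, -1.11 in MR793 and -1.12 in MR820. It did not pass the test without a block (limma adjusted p = 0.0935). Blocking on the replicate it passed (adjusted p = 0.0162), and 1.57% of all genes were called lower there. Blocking on the strip instead gave -1.14, which did not pass (adjusted p = 0.217), and the replicate block was the only 1 of 10 settings besides leaving out an array that called it. Averaged over the 3 Mex3a levels the difference was -0.54 ± 0.15 (adjusted p = 0.155, or 0.0340 with the replicate block, where 1.56% of all genes were called lower, and 1.00 with the strip block). Without the array that stood apart these were -0.96 (adjusted p = 0.147) and -0.49 (adjusted p = 0.0828) in the fit without a block. The dimmer Dll4 probe set differed by 0.08 ± 0.24 in Mex3a-high cells, where its value on the array that stood apart, 6.96, was the highest of all 12, and by -0.33 without that array (limma adjusted p = 0.317 over all single-gene probe sets). Tuft cell markers moved with this difference: limma called 6 of 6 lower in Lgr5-high cells over the 3 Mex3a levels, and 5 of 6 enteroendocrine markers. Of the 3 Paneth cell markers measured limma called 0 lower and 1, Itln1, higher (0.82, adjusted p = 0.00552). The part of these cell types in the Dll4 difference was not tested.

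**Figure D2:**
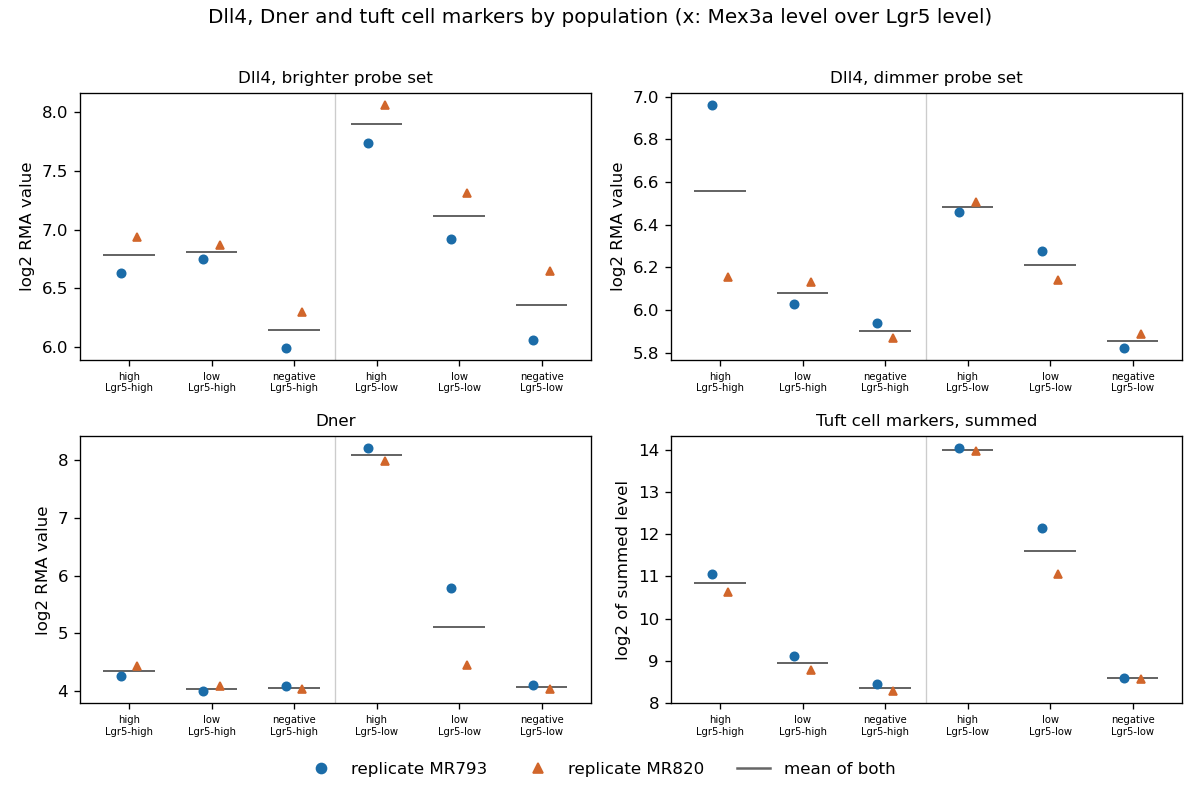
The 2 Dll4 probe sets and Dner (log2 RMA value, y axis) and the log2 summed level of 6 tuft cell markers, on each array by population (x axis); circles are MR793, triangles MR820, lines the mean of both (n = 2). The brighter Dll4 probe set, Dner and the tuft cell markers are all highest in Mex3a-high Lgr5-low cells, with Dner at 8.21 and 7.99 there.

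Dll1, which encodes the other Delta ligand of the set, had its 2 highest population means in Mex3a-low and Mex3a-high Lgr5-low cells. It was at 8.51 and 9.26 in Mex3a-high, at 8.82 and 9.17 in Mex3a-low and at 8.30 and 8.47 in Mex3a-negative Lgr5-low cells. The Mex3a-negative arrays were below the other 4, and the replicates of Mex3a-high cells lay far apart. The difference from Mex3a-negative cells was 0.61 ± 0.27 for Mex3a-low (0.52 in MR793, 0.70 in MR820) and 0.50 ± 0.27 for Mex3a-high cells (0.20 and 0.79, 0.12 within strip 3), both with limma adjusted p = 1.00. In Lgr5-high cells Dll1 was at 8.61 and 8.89 in Mex3a-high, at 8.55 and 8.51 in Mex3a-low and at 8.15 and 8.50 in Mex3a-negative cells, with a difference of 0.42 ± 0.27 between the ends (adjusted p = 0.505, and 0.56 without the array that stood apart).

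Jag1, the Jagged ligand gene of the set, did not share the order of the Delta genes. It was at 7.79 and 7.55 in Mex3a-high, at 7.94 and 7.79 in Mex3a-low and at 8.27 and 7.83 in Mex3a-negative Lgr5-low cells, so that the Mex3a-negative arrays lay above the Mex3a-high ones. The difference was -0.38 ± 0.21 (-0.49 in MR793, -0.27 in MR820, limma adjusted p = 1.00). In Lgr5-high cells its values ran from 7.58 to 8.01, and Mex3a-high and Mex3a-negative cells differed by -0.06 ± 0.21 (adjusted p = 0.876, and -0.17 without the array that stood apart). The means of its 6 populations spanned 0.38, and each population overlapped the next in order.

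The receptor genes Notch1 and Notch2 were higher by value in Lgr5-high than in Lgr5-low cells. Notch2 was at 9.87 and 9.18 in Mex3a-high, at 9.30 and 9.37 in Mex3a-low and at 9.24 and 9.11 in Mex3a-negative Lgr5-high cells. In Lgr5-low cells it was at 8.75 and 8.55, at 8.80 and 8.88 and at 8.88 and 9.00 in the same order. All 6 Lgr5-high arrays lay above all 6 Lgr5-low arrays, which 1.30% of all genes did. The difference was 0.53 ± 0.13 (0.66 in MR793, 0.41 in MR820, limma adjusted p = 0.112). Without the array that stood apart, which holds the highest Notch2 value, it was 0.42 ± 0.07 and passed the test (adjusted p = 0.0132).

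Notch1 was at 10.51 and 10.79 in Mex3a-low and at 10.62 and 10.71 in Mex3a-negative Lgr5-high cells, but at 9.28 and 10.69 in Mex3a-high Lgr5-high cells, the lower of these being the array that stood apart. Its 6 Lgr5-low values ran from 9.48 to 10.21, below all Lgr5-high arrays except that one. The difference between Lgr5 levels was 0.52 ± 0.23 (limma adjusted p = 0.424). Leaving out the array that stood apart gave 0.75 ± 0.12, which passed the test (adjusted p = 0.0110). On the second, dimmer Notch1 probe set the array that stood apart had the highest value, 8.05, and not the lowest. There the Lgr5-high arrays lay above all Lgr5-low arrays, by 0.63 ± 0.14 (limma adjusted p = 0.0801 over all single-gene probe sets, and 0.54 with adjusted p = 0.0236 without that array).

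In the fit without the array that stood apart 3 of the 10 genes were called higher in Lgr5-high cells, namely Notch1, Notch2 and Lfng, against 1.81% of all genes. In the fit on all arrays limma called 0 of the 10, against 1.38% of all genes in either direction, and 4 had an unadjusted p under 0.05 (Dll4, Notch1, Notch2 and Lfng), against 11.6% of all genes. Strip 1 holds Lgr5-high arrays and strip 3 Lgr5-low arrays, so that strip and Lgr5 level are largely confounded. Within strip 2 the 2 Lgr5-high arrays are Mex3a-high and Mex3a-negative and the 2 Lgr5-low arrays Mex3a-high and Mex3a-low, so that Mex3a level is not balanced there. The Lgr5 difference within it was 0.43 for Notch2, 0.63 for Notch1, 0.11 for Lfng and -1.07 for Dll4. With the strip as a block limma called 0 of all 17097 genes between the Lgr5 levels.

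Notch1 and Notch2 showed no difference past the test between Mex3a levels. In Lgr5-low cells the Mex3a-high minus Mex3a-negative difference of Notch1 was 0.09 ± 0.39 (95% interval -0.80 to 0.97) and that of Notch2 -0.29 ± 0.23 (-0.81 to 0.22), both with limma adjusted p = 1.00. In Lgr5-high cells Notch1 differed by -0.68 ± 0.39 and Notch2 by 0.35 ± 0.23 (both adjusted p = 0.505). Without the array that stood apart these were 0.02 and 0.00, so both values rest on that array. Notch3, a receptor gene best known from the smooth muscle cells of vessels, lay at 5.43 to 5.88, mostly below the lowest array median, 5.83. The means of its populations spanned 0.33, the SD between replicates was 0.12, and no comparison passed the test. At so low a level small differences say little about a change. A second Notch3 probe set was dimmer still, at 4.73 to 5.49.

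Of the Fringe genes, Lfng was lowest in Mex3a-negative Lgr5-low cells. It was at 7.00 and 7.21 there, at 7.50 and 7.62 in Mex3a-low and at 7.66 and 7.88 in Mex3a-high Lgr5-low cells, in steps with no overlap. The Lgr5-high values ran from 7.64 to 8.04. Mex3a-high and Mex3a-negative Lgr5-low cells differed by 0.67 ± 0.19 (0.67 in each replicate, 0.56 within strip 3, limma adjusted p = 0.226). Neither population holds the array that stood apart, which enters only through the shared spread. Without it the difference was 0.67 ± 0.13 and passed the test (adjusted p = 0.0183), as it did with array weights (adjusted p = 0.0115). In the fit without that array 2 of the 10 genes, Dll4 and Lfng, were called higher in this comparison, against 4.06% of all genes. On the second Lfng probe set the difference was 0.61 ± 0.29, but 1.00 in MR793 and 0.23 in MR820 (limma adjusted p = 0.793 over all single-gene probe sets). Mfng was at 6.38 and 6.73 in Mex3a-high, at 6.23 and 6.16 in Mex3a-low and at 6.08 and 6.31 in Mex3a-negative Lgr5-low cells, with a difference of 0.36 ± 0.19 between the ends (adjusted p = 0.961).

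Rbpj, which encodes the DNA-binding protein that the cut receptor joins, was nearly level on 11 arrays. Outside the array that stood apart, at 7.05, its values ran from 7.85 to 8.42. Mex3a-high and Mex3a-negative cells differed by 0.05 ± 0.37 in the Lgr5-low populations (95% interval -0.77 to 0.88, limma adjusted p = 1.00) and by -0.41 ± 0.37 in the Lgr5-high ones (adjusted p = 0.544), where the difference was 0.27 without that array. The second Rbpj probe set ran from 6.79 to 7.23 over all 12 arrays, and the array that stood apart was not low on it, at 7.22.

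The target gene Hes1, which encodes a repressor that blocks the secretory fate, was higher in MR793 than in MR820 in every population. In Lgr5-low cells it was at 8.43 and 7.24 in Mex3a-high, at 8.33 and 7.90 in Mex3a-low and at 8.85 and 8.23 in Mex3a-negative cells. In Lgr5-high cells it was at 10.09 and 8.22, at 8.82 and 7.95 and at 8.95 and 8.15 in the same order. Each population overlapped its neighbours in the order of means. Between Mex3a-high and Mex3a-negative Lgr5-low cells the difference was -0.70 ± 0.62 (-0.42 in MR793, -0.99 in MR820, 95% interval -2.11 to 0.70, limma adjusted p = 1.00), and -0.11 within strip 3. In Lgr5-high cells it was 0.61 ± 0.62 (1.14 and 0.07, adjusted p = 0.588), and -0.33 without the array that stood apart. The last value sets MR820 alone against both replicates of Mex3a-negative cells, so it holds the shift between the replicates. The 95% interval in Lgr5-high cells ran from -0.80 to 2.01. In this fit without a block, neither a lower nor a higher Hes1 level could be told from no difference. Its SE holds the shift between the replicates. With the replicate block, which takes up that shift, neither difference passed the test (limma adjusted p = 0.668 in Lgr5-low and 0.457 in Lgr5-high cells). Between the Lgr5 levels of Mex3a-high cells the difference was 1.32 ± 0.62 (1.66 in MR793, 0.98 in MR820). It did not pass the test (limma adjusted p = 0.387, or 0.118 with the replicate block), and was 0.38 without the array that stood apart. That value sets MR820 alone against both replicates of Lgr5-low cells, so it too holds the shift between the replicates.

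**Figure D3:**
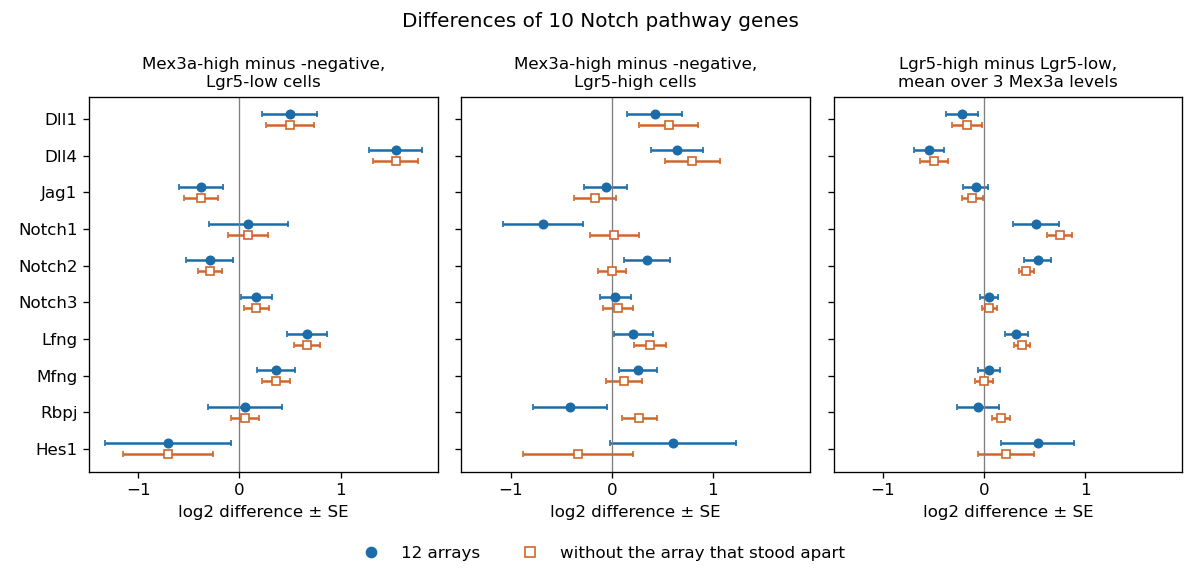
Log2 differences (x axis) of the 10 genes in 3 comparisons, with the moderated SE of limma as bars; filled circles come from all 12 arrays and open squares from the 11 arrays without the one that stood apart. Dll4 at 1.54 in Lgr5-low cells stands farthest from 0, and the Lgr5-high differences of Notch1, Notch2, Rbpj and Hes1 move when that array is left out.

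In all, limma called 1 of the 10 genes in 1 of 11 comparisons, Dll4 between Mex3a-high and Mex3a-negative Lgr5-low cells. In that comparison the ligand genes had a median difference of 0.50, the other 7 genes 0.09 and all genes tested -0.01. The arrays of the 2 populations did not overlap for 5 of the 10 genes in the higher direction (Dll1, Dll4, Notch3, Lfng and Mfng) and for 2 in the lower one (Jag1 and Notch2), against 21.1% and 24.2% of all genes. Between the Lgr5 levels, averaged over Mex3a, the ligand genes had a median of -0.22, the other 7 genes 0.32 and all genes 0.04. Of the remaining comparisons with 0 of the 10 genes called, Mex3a-high against Mex3a-low Lgr5-low cells had 0.889% of all genes called and Mex3a-low against Mex3a-negative Lgr5-low cells 0.0468%. At an unadjusted p under 0.05 these had 1 (Dll4) and 2 (Dll4 and Lfng) of the 10 genes, against 4.66% and 1.18% of all genes. Lgr5-high against Lgr5-low had 1.37% of all genes called among Mex3a-high, 0.0468% among Mex3a-low and 0 genes among Mex3a-negative cells, with 2 (Dll4 and Notch2), 0 and 1 (Lfng) of the 10 genes at an unadjusted p under 0.05, against 12.5%, 2.98% and 2.17% of all genes. Between Mex3a-high and Mex3a-low Lgr5-high cells limma called 0 genes, and 0 of the 10 had an unadjusted p under 0.05, against 3.63% of all genes. The difference between the Lgr5 levels of the Mex3a-high minus Mex3a-negative change was called for 0.398% of all genes and for 0 of the 10, with Dll4 at an unadjusted p under 0.05, as 3.71% of all genes were. The same test of the other 2 Mex3a steps, added after the values were seen, gave Dll4 0.09 ± 0.37 (adjusted p = 1.00) and 0.81 ± 0.37 (adjusted p = 0.881, and 0.65 without the array that stood apart), and called none of the 10.

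The replicates themselves differed in a set direction for 5 of the 10 genes. Hes1 was higher in MR793 than in MR820 in 6 of 6 populations, by 0.43 to 1.87, and Jag1 by 0.13 to 0.45. For all genes this direction held in 6 of 6 populations for 4.36%. Dll4, by 0.13 to 0.59, Notch1, by 0.08 to 1.41, and Rbpj, by 0.02 to 1.36, were higher in MR820 in 6 of 6 populations, which 7.04% of all genes were. The upper ends for Hes1, Notch1 and Rbpj come from the population with the array that stood apart. The second probe sets of Dll4, Jag1 and Rbpj were higher in MR793 in 3 of 6 populations each, and that of Notch1 in 2 of 6, so that the direction did not hold on them.

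**Figure D4:**
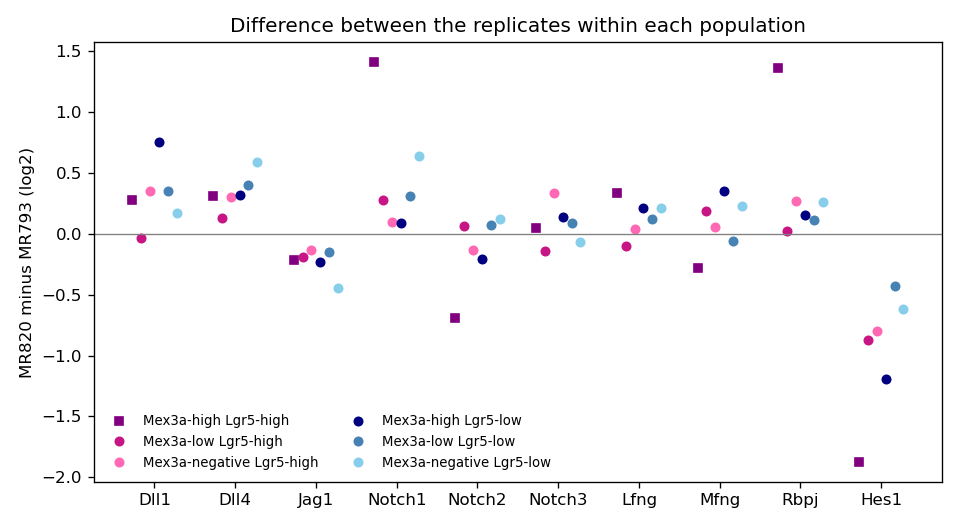
Difference between the replicates, MR820 minus MR793 (log2, y axis), for each of the 10 genes (x axis) in each of the 6 populations; squares mark the Mex3a-high Lgr5-high population, which holds the array that stood apart. Hes1 and Jag1 lie below 0 and Dll4, Notch1 and Rbpj above 0 in all populations, with Hes1 at -1.87 and Notch1 at 1.41 in the population marked by squares.

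Of 40 further Notch pathway genes 35 were measured, and 1, Dner, was called in any comparison of the fit on all arrays. Between Mex3a-high and Mex3a-negative Lgr5-low cells this was 1 of 35, against 1.73% of all genes, so the count itself does not set the list apart. Dner encodes a transmembrane protein with Delta-like repeats that has been described as a Notch ligand. In Mex3a-high Lgr5-low cells it was at 8.21 and 7.99, in Mex3a-low Lgr5-low cells at 5.78 and 4.44, and on the other 8 arrays at 3.99 to 4.43. Dner was thus high in 1 population. In Mex3a-low Lgr5-low cells only the MR793 array lay between, while that of MR820 was about level with the highest of the other 8. It rose by 4.04 ± 0.33 between Mex3a-negative and Mex3a-high Lgr5-low cells (4.11 in MR793, 3.96 in MR820, limma adjusted p = 0.000160) and by 2.99 ± 0.33 between Mex3a-low and Mex3a-high Lgr5-low cells (adjusted p = 0.00305). In Lgr5-high cells Mex3a-high and Mex3a-negative populations differed by 0.28 ± 0.33 (adjusted p = 0.622, and 0.37 without the array that stood apart). That change was smaller than in Lgr5-low cells by 3.75 ± 0.46, which passed the test (limma adjusted p = 0.00926, and 3.66 with adjusted p = 0.0114 without that array). The Lgr5-high minus Lgr5-low difference of Dner was -3.76 ± 0.33 among Mex3a-high cells (adjusted p = 0.000447) and -1.61 ± 0.19 over the 3 Mex3a levels (adjusted p = 0.00355, and 0.692 when the strip was a block). Without that array these were -3.67 and -1.58, and both passed the test.

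The other 34 pathway genes, among them the genes for receptor cleavage, ligand endocytosis and the transcription complex, were not called in the fit on all arrays. Without the array that stood apart, Dtx3 (1.08, adjusted p = 0.0269, against 0.0959 on all arrays), of the Deltex family, was called higher in the Mex3a-high against the Mex3a-negative Lgr5-low populations. Nrarp, which encodes a Notch-induced inhibitor of the pathway, was called lower in that fit (-0.52, adjusted p = 0.0238, against 0.803 on all arrays), as 1.23% of all genes were. Nrarp was at 9.67 and 9.73 in Mex3a-high and at 10.10 and 10.33 in Mex3a-negative Lgr5-low cells. In the same fit Dtx4 was called higher in Lgr5-high cells (0.56, adjusted p = 0.0204), as 1.81% of all genes were. Strip and Lgr5 level are largely confounded in that comparison. Of the Hes and Hey targets, Hes5, Hey1, Hey2 and Heyl differed by -0.09 to 0.10 between Mex3a-high and Mex3a-negative Lgr5-low cells, and Hes6, a Hes family gene of secretory progenitors, by 0.60 (limma adjusted p = 0.942). Olfm4, listed among the targets and also a stem cell marker, differed by 0.06 there and lay at 12.50 to 13.08 over all arrays. Hes5 (means of 5.21 and 5.14), Hey2 (4.35 and 4.28) and Heyl (5.06 and 5.15) lay below the lowest array median, 5.83. Their small differences therefore say little about a change.

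Markers of tuft, enteroendocrine and Paneth cells rose with Dll4 between these Mex3a levels of Lgr5-low cells. None of those of goblet cells, a further secretory type, was called there. The Paneth cell markers did not follow Dll4 between the Lgr5 levels. Their log2 summed level was 13.0 and 12.7 in Mex3a-high Lgr5-low and also in Mex3a-high Lgr5-high cells. Between Mex3a-high and Mex3a-negative Lgr5-low cells limma called higher 6 of 6 tuft cell markers, 5 of 6 enteroendocrine markers and 2 of 3 Paneth cell markers measured, against 1 of 6 secretory progenitor markers (Neurog3). The log2 summed level of the tuft cell markers was 14.0 on both Mex3a-high Lgr5-low arrays, 12.2 and 11.1 on the Mex3a-low ones and 8.60 and 8.57 on the Mex3a-negative ones. That of the enteroendocrine markers was 14.3 and 13.9, 13.6 and 12.5, and 10.1 and 9.17. Over the 12 arrays Dll4 had a Pearson r of 0.871 with the first and of 0.749 with the second, arrays that share replicates and populations, so these describe the arrays only. Of the immune markers, 2 of 8 (Ptprc and Lyz2) were called higher. The part of these cell types in the Dll4 difference was not tested.

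Dll4 is also known from blood vessels. Limma called 0 of 8 endothelial markers in this comparison. By their mean over the arrays, 6 of these 8 lay below the median probe set, where differences are compressed. The part of vessel cells in the Dll4 difference was not tested. Tek differed by 0.89 (limma adjusted p = 0.102), and the other 7 by -0.09 to 0.21. Their log2 summed level ran from 8.59 to 8.73 over the 6 Lgr5-low arrays. In Lgr5-high cells it ran from 8.59 to 9.70, the last on the array that stood apart. Limma called 0 of 8 mural and mesenchymal markers, with a summed level of 8.89 to 9.00 in Lgr5-low cells and of 9.77 on the array that stood apart. Of the goblet cell markers limma called 0 of 5 between these Mex3a levels, with differences from -1.33 for Clca1 to 0.17 for Agr2. They had a log2 summed level of 13.9 to 14.9 in Lgr5-low and of 12.7 to 13.7 in Lgr5-high cells, and limma called 3 of 5 lower in the latter. The enterocyte markers ran from 11.8 to 13.9 and from 10.3 to 13.1, with 0 of 5 called between these Mex3a levels and 1 of 5 (Krt20, -1.66, adjusted p = 0.0235) between the Lgr5 levels. Of the stem cell markers, 4 of 5 were called higher in Lgr5-high than in Lgr5-low cells, the direction of the Notch1 and Notch2 differences. They include Lgr5 itself, by which the cells were isolated, beside Ascl2, Smoc2 and Axin2.

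The genes most like Dll4 over the 12 arrays, among 1719 genes whose population means spanned over 1, were Armcx3 (Pearson r = 0.952), Kit (0.937), a receptor tyrosine kinase gene, and Pla2g2f (0.933), a secreted phospholipase gene. The population means of Kit, from Mex3a-high through Mex3a-low to Mex3a-negative, were 7.44, 6.48 and 5.42 in Lgr5-low cells and 5.82, 5.74 and 5.15 in Lgr5-high cells. Over the 11 arrays without the one that stood apart, the closest were Armcx3 (0.955), Tanc2 (0.941) and Kit (0.938). The genes most like Hes1 were Trim2 (0.923), Tma16 (0.892) and Tcea3 (0.871) over 12 arrays. Over the 11 others they were Nr3c1 (0.953), which encodes the glucocorticoid receptor, Rgn (0.941) and Hsd17b13 (0.918), whose r over 12 arrays was -0.33, 0.13 and 0.28. The genes like Hes1 thus changed with 1 array, and those like Dll4 mostly did not. The other 8 genes did not span over 1 and were not compared in this way.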

How the data were processed

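Total RNA of 6 populations, 2 biological replicates of each, was hybridised to 12 Affymetrix arrays in 3 strips. The authors deposited log2 values. Per the submitters' processing notes they come from RMA, whose version was not given in the sources used here. Dim probe sets keep an RMA value, so their differences are compressed. Of 45141 probe sets 28898 were listed with 1 gene, 551 with several, and 15692 were not in the probe table and were not analysed here.

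The probe set with the highest mean stood for a gene. The 17097 genes were fitted with limma 3.58.1 in R 4.3.3 as 6 population means without a block (eBayes with trend, 6 residual and 3.44 prior degrees of freedom). Benjamini-Hochberg adjustment ran over all genes of a comparison, and genes with an adjusted p under 0.05 are said to be called. SE is the moderated standard error. Second probe sets were tested in a fit of all single-gene probe sets. The scripts were tested on simulated data.

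The replicates pair the populations, since the design names the same 2 for all 6. The replicate differences of 14 of 15 pairs of populations correlated above 0.1 (lowest -0.115, median 0.382, highest 0.566), and of all 10 pairs without the array that stood apart (0.374 to 0.566). The blocked value is given where it changes a call. Alternatives were the replicate, the strip or both as blocks, 2 further normalizations, 2 further choices of probe set, a filter on dim genes, eBayes without trend, array weights, the arrays of 1 Lgr5 level alone, and each array left out.

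The 10 genes, the 40 further Notch genes and the marker lists were chosen with earlier results of these data known. Named were the 10 genes, further Notch genes called in a comparison, defining markers, and the 3 genes most correlated with each of the 10 that spanned over 1. Dtx3, Nrarp, Dtx4, Olfm4, Tek, Krt20, Clca1, Agr2 and the Hes and Hey genes were named after their values were seen. Promoter windows are the 250 bases before each start in the RefSeq table.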

Additional observations from a re-analysis of the deposited data

How the results depend on the processing

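Dll4 kept its call between Mex3a-high and Mex3a-negative Lgr5-low cells in all 11 alternatives besides leaving out an array, and in 9 of 12 with an array left out (1.25 to 1.84). The number of the 10 genes called in this comparison, 1, was 2 with array weights (Dll4 and Lfng) and 0 to 2 with an array left out. With the replicate block it stayed 1, while the count over the Lgr5 levels went from 0 to 1 and that among Mex3a-high cells from 0 to 1, Dll4 in both; the replicate block changed no other call of the 10 genes. With an array left out, the counts ran from 0 to 5 over the Lgr5 levels, from 0 to 4 in the Lgr5 comparison among Mex3a-high cells, from 0 to 4 in Mex3a-high against Mex3a-negative and against Mex3a-low Lgr5-high cells, and from 0 to 6 for the difference between the Lgr5 levels. The upper ends all come when MR820 is left out of the Mex3a-high Lgr5-high population, so that the array that stood apart is alone there, with 8315 to 10870 of all genes called. Of 248 counts of the 10 genes 234 stayed within 1.5 times, which includes counts of 0 that stayed 0. Of 90 single-gene differences 0 reversed. These were of Dll4 and Lfng alone, in comparisons picked because a fit had called them, so they say nothing of the other genes. Signs did change elsewhere. Between Mex3a-high and Mex3a-negative Lgr5-high cells Hes1 went from 0.61 to -0.33 without the array that stood apart, and Rbpj from -0.41 to 0.27. These values set MR820 alone against both replicates of Mex3a-negative cells. Within MR820 the difference was 0.07 for Hes1 and 0.14 for Rbpj, so the negative Hes1 value holds the shift between the replicates.

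Over all genes, the count between Mex3a-high and Mex3a-negative Lgr5-low cells, 295, was 930 with array weights, 533 from the Lgr5-low arrays alone and 165 to 907 with an array left out (905 without the one that stood apart). Mex3a-low against Mex3a-negative Lgr5-low cells had 8 genes, and 2 to 30 under the strip block, both blocks, quantile normalization or array weights. Mex3a-high against Mex3a-low Lgr5-low cells had 152, and 461 with array weights. Over the Lgr5 levels 236 became 44 with array weights and 0 with the strip as a block, with or without the replicate. Among Mex3a-high cells 234 became 145 with the strip, 105 with both blocks and 0 with array weights; among Mex3a-low cells 8 became 0 to 90, and among Mex3a-negative cells 0 became up to 32. The count of 68 for the difference between the Lgr5 levels became 141 with the strip and 0 with array weights, and that of 0 for Mex3a-high against Mex3a-negative Lgr5-high cells became 5 with the replicate block. The cause of these shifts was not tested.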
